A study of Mus musculus with 16 samples.

Results

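The genes described here are 10 genes of the interstitial matrix, namely the small leucine-rich proteoglycans Dcn, Lum, Bgn and Fmod, the elastic fibre genes Eln, Fbn1 and Fbln5, fibronectin (Fn1) and the crosslinking enzymes Lox and Loxl1. They were taken by symbol from the 47729 genes of the count tables, and each symbol matched 1 gene. RNA was sequenced from hepatic stellate cells (HSCs), endothelial cells (ECs), Kupffer cells and hepatocytes of adult mice with unchallenged livers, in 16 libraries, 2 per combination of the 4 cell types with a genotype label. Mice labelled KO carried Zeb2 alleles with loxP sites around an exon together with Cdh5-CreERT2, a Cre recombinase that tamoxifen activates and that an endothelial promoter drives, so that Zeb2, a transcriptional regulator, was the target in ECs and not in the other cell types. Controls (WT) were littermates without Cre, and both labels received tamoxifen at 2 mg per day on 5 consecutive days. The line was crossed onto a Cre-activated eGFP reporter, and the study used 8-week-old males and measured mRNA 2 weeks after tamoxifen unless it says otherwise. HSCs were sorted by their autofluorescence under ultraviolet light, Kupffer cells by F4/80 and ECs by a pan-endothelial antigen, and hepatocytes were separated by centrifugation. All 4 cell types were isolated at the same time, and a single liver may therefore have given libraries of more than 1 cell type.

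Small leucine-rich proteoglycans are secreted core proteins that bind collagen fibrils and set their spacing and diameter, and decorin and biglycan also bind growth factors of the TGF-beta family. Elastic fibres are built from elastin that is deposited on fibrillin microfibrils with the help of fibulins and is then crosslinked by lysyl oxidases, while fibronectin forms a fibrillar network to which cells attach through integrins and also circulates in plasma as a product of hepatocytes. In the liver, the space between sinusoidal endothelium and hepatocytes holds only a thin matrix, and HSCs, the vitamin A storing pericytes of the sinusoid, are known as its main producers and as the chief source of scar matrix in fibrosis.

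Library depth ran from 12872706 to 15690506 counts on genes, and levels are given as CPM, the count of a gene scaled to a common library total of 1e6. At this depth 3 counts, taken as the smallest level that a library can show, correspond to 0.191 to 0.233 CPM, which covers counting error only. Replicates differed by more than sampling noise, and the typical variation between libraries of a group that edgeR estimated was 36.8% in hepatocytes, 38.6% in ECs, 42.6% in HSCs and 51.0% in Kupffer cells. Zeb2, counted over the whole gene and not over the targeted exon alone, had 199 and 130.1 CPM in the KO-labelled libraries of ECs and 106 CPM in both WT libraries. It was thus not lower under the KO label, the targeted exon was not counted on its own, and KO is used below only as a label. Markers of each cell type were highest in its own libraries, and counts on markers of other cell types were found in all of them. Hepatocyte markers had a median of 11.4% and 24.3% of their level in WT hepatocytes in the 2 WT EC libraries, against 2.55% and 1.94% in those labelled KO, and marker values are given again beside the results of the label comparison.

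Sequences upstream of the transcription start are shown for 3 of the 4 members for which a promoter was found. Of these, Bgn and Fbln5 were high in HSCs and Fmod was low in all cell types. The sequences are the 250 bases before the start in RefSeq on GRCm38.p6, written 5′ to 3′ on the strand of the gene. Capitals mark the letters of a GC box (GGGCGG or its reverse complement CCGCCC) or of a CCAAT box (CCAAT or ATTGG). The Bgn window is chrX:73483351-73483600 on the plus strand, the Fbln5 window is chr12:101819120-101819369 on the minus strand and the Fmod window is chr1:134037004-134037253 on the plus strand. None of them lies inside the annotated gene of its own member, and overlap with other genes was not checked.
Bgn: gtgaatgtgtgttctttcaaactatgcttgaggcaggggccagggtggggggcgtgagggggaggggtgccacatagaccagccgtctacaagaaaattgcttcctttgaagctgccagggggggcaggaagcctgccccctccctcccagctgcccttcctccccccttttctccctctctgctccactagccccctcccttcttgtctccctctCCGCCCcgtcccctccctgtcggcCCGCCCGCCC
Fbln5: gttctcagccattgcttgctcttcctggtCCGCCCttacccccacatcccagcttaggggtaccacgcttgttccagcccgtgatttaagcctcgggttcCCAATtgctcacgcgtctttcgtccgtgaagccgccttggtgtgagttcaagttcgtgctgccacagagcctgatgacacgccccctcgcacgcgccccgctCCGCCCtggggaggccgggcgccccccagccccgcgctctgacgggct
Fmod: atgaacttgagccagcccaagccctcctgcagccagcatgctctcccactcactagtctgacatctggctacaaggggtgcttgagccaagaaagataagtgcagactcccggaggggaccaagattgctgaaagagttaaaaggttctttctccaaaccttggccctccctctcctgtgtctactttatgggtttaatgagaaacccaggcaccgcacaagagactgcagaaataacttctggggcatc
The Bgn window held 3 GC boxes, of which 2 share letters at the 3′ end, and the Fbln5 window held 2 GC boxes and 1 CCAAT box, while the Fmod window held neither. A window before another Fbln5 start, inside the gene at chr12:101818485-101818734, held neither as well and had a GC content of 49.6%, and the Fbn1 window, inside the gene at chr2:125506439-125506688, held 1 GC box. In the windows shown, GC content was 64.4% for Bgn, 65.2% for Fbln5 and 51.2% for Fmod. None of the 3 windows held CACCTG or CAGGTG, the E-box letters that Zeb proteins are known to bind, nor TATAAA or its complement TTTATA. Of 32851 windows of this length before mouse genes, 32.7% held a GC box, 33.8% a CCAAT box, 17.2% the E-box letters and 12.4% the TATA letters on either strand. A match describes the letters of a window and not a bound site. A link between these letters and the level of a gene in a cell type was not tested.

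Most of the members had their highest level in HSCs, and together they made up 4.21% to 5.31% of all gene reads there, against 0.047% to 0.110% in ECs, 0.033% to 0.085% in Kupffer cells and 0.031% to 0.056% in hepatocytes. Of the 10 members, 8 were higher in HSCs than in ECs by edgeR's quasi-likelihood test with a Benjamini-Hochberg adjusted p under 0.05, while 26.0% of all 17214 genes tested passed in either direction and 12.8% were higher in HSCs. The median log2 fold change of the members was 4.58 against -0.02 over all genes. Against Kupffer cells 7 members were higher in HSCs, where 42.9% of all genes passed and 22.3% were higher, with a median of 5.48 against 0.09. Against hepatocytes 8 members were higher in HSCs, where 58.4% of all genes passed and 34.0% were higher, with a median of 6.92 against 0.60.

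**Figure D1:**
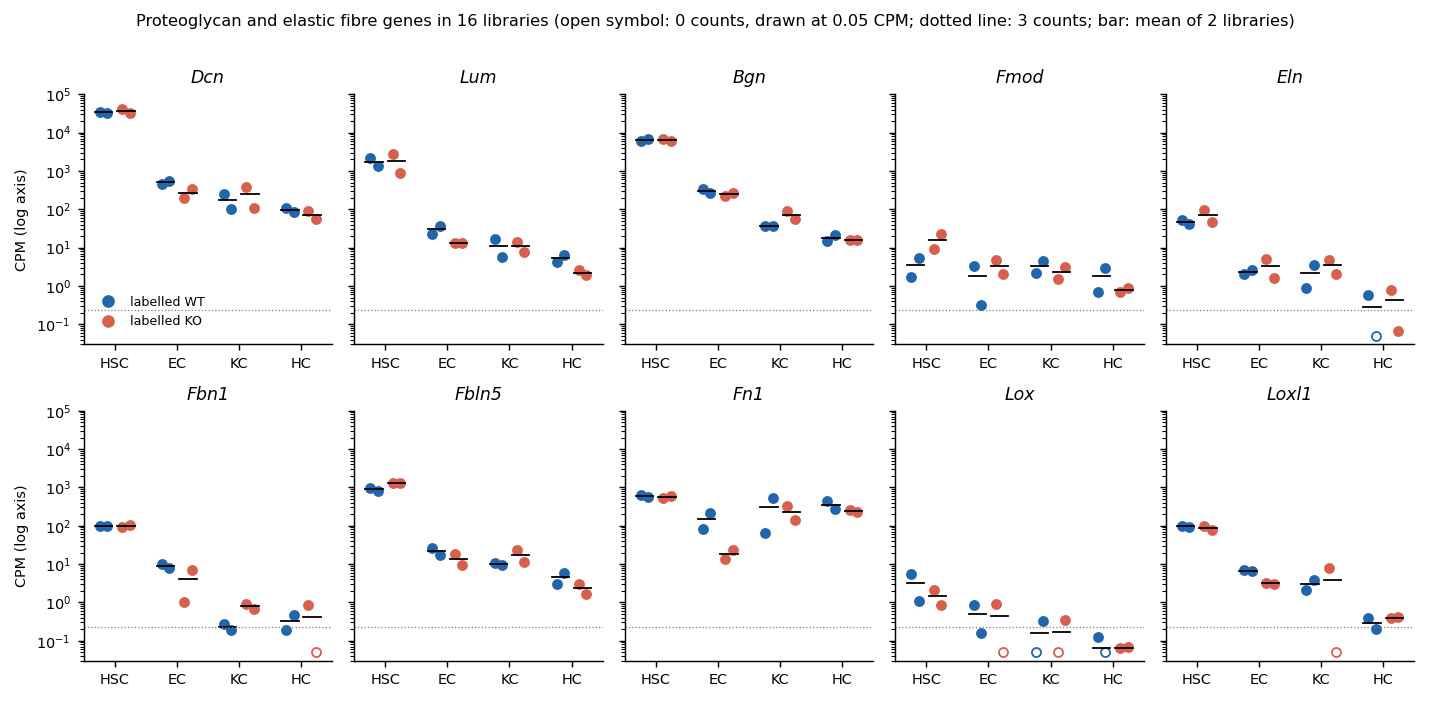
Level of each of the 10 genes in CPM (log axis) in every library, by cell type (HSC, stellate cells; EC, endothelial cells; KC, Kupffer cells; HC, hepatocytes) and by label, with a bar at the mean of 2 libraries, open symbols for 0 counts and a dotted line at 3 counts in the shallowest library. All 4 HSC libraries lie above the other 12 for Dcn, Lum, Bgn, Eln, Fbn1, Fbln5 and Loxl1, and they overlap with other cell types for Fmod, Lox and Fn1.

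Dcn encodes decorin, the prototype of the family (ENSMUSG00000019929, chr10:97479609-97518143, plus strand). Its level was 35012 and 32457 CPM in the WT HSC libraries and 41253 and 33469.6 CPM in those labelled KO. In ECs it was 446 and 560.3 CPM in WT and 192 and 329 CPM under the KO label. Every HSC library thus exceeded every EC library many times over, and the next in order were Kupffer cells with 99.96 to 384 CPM and hepatocytes with 56.0 to 106 CPM. HSCs were 6.85 ± 0.53 (SE) above ECs on the log2 scale (adjusted p = 2.07e-06), whereas ECs did not pass the test against Kupffer cells or hepatocytes. Dcn alone supplied 3.25% to 4.13% of all gene reads in HSCs and 77.1% to 78.4% of the reads on the members.

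Lum encodes lumican, which lies next to Dcn on chromosome 10 (ENSMUSG00000036446, chr10:97565128-97572703, plus strand). It reached 2127 and 1366 CPM in WT HSCs and 2723 and 871 CPM under the KO label, a wider spread than that of Dcn, Bgn, Fbln5 or Fn1 in these cells. EC libraries held 22.7 and 36.7 CPM in WT and 13.6 and 13.1 CPM under the KO label, Kupffer cells 5.61 to 17.1 CPM and hepatocytes 1.89 to 6.61 CPM. The order of the cell types was that of Dcn, with HSCs 6.71 ± 0.53 (SE) above ECs on the log2 scale (adjusted p = 2.88e-06) and ECs 1.13 above hepatocytes (adjusted p = 0.0425).

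Bgn encodes biglycan, the closest relative of decorin (ENSMUSG00000031375, chrX:73483602-73495933, plus strand). HSC libraries held 6170.0 and 6682 CPM in WT and 6950.5 and 6217 CPM under the KO label, a mean of 6505 ± 376 CPM (SD, n = 4). EC libraries held 329.8 and 258 CPM in WT and 221 and 268 CPM under the KO label, a mean of 269 ± 45.1 CPM (SD, n = 4). Bgn therefore varied less between libraries of a cell type than Dcn or Lum did, and its EC libraries lay above those of Kupffer cells, with 37.7 to 89.6 CPM, and of hepatocytes, with 15.2 to 21.2 CPM. HSCs were 4.84 ± 0.26 (SE) above ECs on the log2 scale (adjusted p = 1.75e-07), and ECs were 2.05 ± 0.23 (SE) above Kupffer cells (adjusted p = 3.4e-05) and 2.60 above hepatocytes (adjusted p = 1.68e-06).

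Fmod encodes fibromodulin, which modifies collagen fibrils in tendon and cartilage (ENSMUSG00000041559, chr1:134037254-134048277, plus strand). It was the proteoglycan that set HSCs least apart, with 1.66 and 5.44 CPM in WT and 9.26 and 23.1 CPM under the KO label. EC libraries held 0.311 to 4.80 CPM, Kupffer cells 1.52 to 4.50 CPM and hepatocytes 0.701 to 3.00 CPM. Its level in HSCs overlapped that in each of the other cell types, and HSCs were 1.86 ± 0.76 (SE) above ECs on the log2 scale without passing the test (adjusted p = 0.0953).

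Of the elastic fibre genes, Eln encodes elastin, the core protein of the fibre (ENSMUSG00000029675, chr5:134702593-134747323, minus strand). It had 52.6 and 41.9 CPM in WT HSCs and 96.2 and 46.3 CPM under the KO label. It stayed between 1.60 and 5.15 CPM in ECs, between 0.872 and 4.81 CPM in Kupffer cells and between 0 and 0.774 CPM in hepatocytes, where 2 of the 4 libraries were below 3 counts. HSCs were 4.62 ± 0.71 (SE) above ECs on the log2 scale (adjusted p = 0.000466), and ECs and Kupffer cells had overlapping levels.

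Fbn1 encodes fibrillin-1, the main microfibril protein (ENSMUSG00000027204, chr2:125300594-125507993, minus strand). It was even among HSC libraries, with 97.6 and 95.6 CPM in WT and 93.7 and 106 CPM under the KO label. In ECs it was 10.0 and 7.85 CPM in WT and 1.04 and 6.95 CPM under the KO label, and it was under 1 CPM in every Kupffer cell and hepatocyte library. HSCs were 4.26 ± 0.62 (SE) above ECs on the log2 scale (adjusted p = 0.000325), and ECs were 3.47 ± 0.70 (SE) above Kupffer cells (adjusted p = 0.0024).

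Fbln5 encodes fibulin-5, which links elastin to microfibrils and to integrins (ENSMUSG00000021186, chr12:101746565-101819055, minus strand). It was the most abundant of the 3 elastic fibre genes in HSCs, also per kilobase of merged annotated exons. HSC libraries held 972 and 805 CPM in WT and 1328 and 1273 CPM under the KO label. The other cell types lay far lower, with 9.25 to 26.0 CPM in ECs, 9.59 to 22.9 CPM in Kupffer cells and 1.68 to 6.00 CPM in hepatocytes. HSCs were 6.22 ± 0.40 (SE) above ECs on the log2 scale (adjusted p = 5.24e-07).

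The crosslinking enzymes differed in level. Loxl1, a lysyl oxidase needed for the upkeep of elastic fibres (ENSMUSG00000032334, chr9:58287738-58313186, minus strand), had 101 and 91.2 CPM in WT HSCs and 97.3 and 78.8 CPM under the KO label. ECs held 3.06 to 7.12 CPM, Kupffer cells 0 to 7.78 CPM and hepatocytes 0.205 to 0.404 CPM, so that every library of another cell type was far below the HSC libraries. HSCs were 4.55 ± 0.78 (SE) above ECs on the log2 scale (adjusted p = 0.0011).

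Lox, which encodes lysyl oxidase itself (ENSMUSG00000024529), was near the limit of detection. HSC libraries held 85 and 17 counts in WT and 30 and 12 counts under the KO label, and EC libraries held 12 and 2 counts in WT and 13 and 0 counts under the KO label. Kupffer cell libraries held 0 or 5 counts and hepatocyte libraries 0 to 2. Pooled over the 4 libraries and taken per read without scaling factors, HSCs had 36.3 times the level of hepatocytes, with a counting interval (95%, exact) of 13.9 to 135 from 144 against 4 counts, and ECs 7.32 times, with an interval of 2.55 to 28.8 from 27 against 4 counts. These intervals cover counting error only and not the spread between libraries. With that spread and TMM scaling, edgeR gave log2 fold changes over hepatocytes of 3.85 ± 1.52 (SE) for HSCs (adjusted p = 0.0453) and of 1.43 ± 1.49 (SE) for ECs (adjusted p = 0.431). The call for HSCs was lost when only WT groups were contrasted (adjusted p = 0.117). HSCs were 2.42 ± 1.32 (SE) above ECs on the log2 scale, which did not pass the test (adjusted p = 0.204).

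Fn1 was abundant in HSCs and in hepatocytes alike (ENSMUSG00000026193, chr1:71585520-71653200, minus strand). HSC libraries held 643 and 563 CPM in WT and 521 and 602 CPM under the KO label, and hepatocyte libraries held 429 and 280.0 CPM in WT and 257 and 229 CPM under the KO label. Kupffer cells spread from 66.0 to 535 CPM and ECs from 13.3 to 214 CPM. HSCs and hepatocytes could not be ordered, since the log2 fold change of HSCs over hepatocytes was -0.13 ± 0.49 (SE) with TMM scaling (adjusted p = 0.865) and 0.99 when library totals were used (adjusted p = 0.112). ECs were lowest, at -3.86 ± 0.55 (SE) against hepatocytes (adjusted p = 7.73e-05), -2.61 ± 0.52 (SE) against Kupffer cells (adjusted p = 0.00242) and 3.73 ± 0.55 (SE) below HSCs (adjusted p = 0.000355), all on the log2 scale. When only WT groups were contrasted, the calls against Kupffer cells and HSCs were lost. The log2 fold change was then -1.26 against Kupffer cells (adjusted p = 0.249) and 2.29 for HSCs over ECs (adjusted p = 0.0643). The WT EC libraries lay within the range of Kupffer cells.

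Levels in HSCs were also compared per kilobase of the merged annotated exons of a gene, which is not the length of a single transcript. The order of the members began with Dcn at 6089 ± 676 CPM per kb (SD, n = 4), Bgn at 1067 ± 61.7 and Lum at 724 ± 334. Fbln5 with 158 ± 35.9, Fn1 with 49.8 ± 4.45 and Loxl1 with 27.9 ± 2.96 followed. Fbn1 with 8.10 ± 0.447 and Eln with 7.32 ± 3.09 CPM per kb (SD, n = 4) did not differ beyond their spread, and Fmod with 2.98 ± 2.83 and Lox with 0.494 ± 0.445 closed the order. In ECs the gap between Dcn and Bgn was small, with 65.4 ± 27.1 and 44.2 ± 7.39 CPM per kb (SD, n = 4).

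Between the cell types other than HSCs, the share of members that passed the test was near or below that of all genes. Of the 10, 3 passed between ECs and Kupffer cells, where 32.0% of all genes did, with Bgn and Fbn1 higher in ECs and Fn1 lower. Between ECs and hepatocytes 6 passed, where 58.7% of all genes did, with Lum, Bgn, Fbn1, Fbln5 and Loxl1 higher in ECs and Fn1 lower. Between Kupffer cells and hepatocytes 4 passed, where 55.6% of all genes did, with Eln, Fbln5 and Loxl1 higher in Kupffer cells and Fn1 lower. For Loxl1 the Kupffer cell libraries were uneven, with 32 and 58 counts in WT and 118 and 0 counts under the KO label. Hepatocyte libraries held 3 to 6 counts of it. Its log2 fold change was 2.23, and -1.90 without Kupffer cell KO library 27. TMM factors were 0.497 to 0.588 in hepatocytes and 1.01 to 1.47 elsewhere. With library totals 8 members passed between ECs and hepatocytes, where 12289 of all 17214 genes did, against 10103 with TMM. Between Kupffer cells and hepatocytes 6 members passed, where 10874 of all genes did, against 9577 with TMM. Dcn then passed in both, at 2.12 (adjusted p = 0.00063) and 1.31 (adjusted p = 0.0128) on the log2 scale, and Bgn was 1.61 higher in Kupffer cells than in hepatocytes (adjusted p = 2.8e-05), while the Fn1 difference between Kupffer cells and hepatocytes went from -1.25 (adjusted p = 0.0499) to -0.15 (adjusted p = 0.857).

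To see how much of the members' low level outside HSCs moved with stellate RNA, each was expressed as a percentage of its mean in WT HSCs and set beside 10 stellate cell markers, none of them a member. The markers had a median of 1.31% and 1.88% in the WT EC libraries and 0.429% and 0.779% in those labelled KO, of 0.262% to 1.22% in Kupffer cells and of 0.0872% to 0.242% in hepatocytes. Dcn lay close to them, with 1.32% and 1.66% in WT ECs, 0.568% and 0.98% in ECs labelled KO, 0.296% to 1.14% in Kupffer cells and 0.166% to 0.313% in hepatocytes. Lum did likewise, with 1.30% and 2.104% in WT ECs and 0.78% and 0.752% under the KO label. It had 0.321% to 0.979% in Kupffer cells and 0.108% to 0.379% in hepatocytes. In every hepatocyte library both Dcn and Lum lay above the marker median. In WT Kupffer cell library 31 they had 0.737% and 0.979%, above the 0.587% of Bgn. Bgn lay above the marker median of the same library in all 12 libraries. It had 3.44% to 5.13% in ECs, 0.587% to 1.39% in Kupffer cells and 0.236% to 0.330% in hepatocytes. Fbln5 also lay above the marker median in all 12, with 1.04% to 2.92% in ECs and 1.08% to 2.58% in Kupffer cells. In all 4 EC libraries the same held for Fbn1, with 10.4% and 8.12% in WT against 1.08% and 7.20% in KO-labelled libraries, and for Loxl1, with 3.18% to 7.41%. The highest single marker reached 11.9% and 16.9% in the WT EC libraries and 6.98% and 7.69% in those labelled KO, above each of these members in the same library. The part of stellate RNA in these levels was not tested, and in sorted bulk samples fewer cells of a type and less RNA per cell cannot be told apart.

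**Figure D2:**
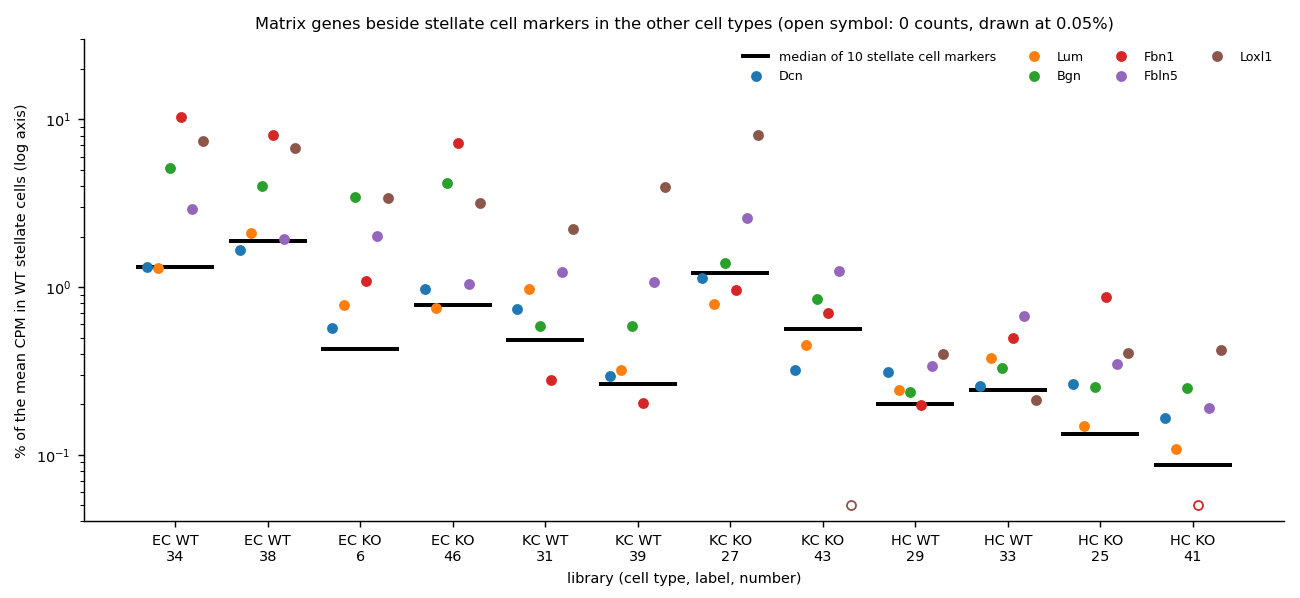
Level of Dcn, Lum, Bgn, Fbn1, Fbln5 and Loxl1 as a percentage of their mean CPM in WT stellate cells (log axis) in the 12 libraries of endothelial cells (EC), Kupffer cells (KC) and hepatocytes (HC), beside a black line at the median of the 10 stellate cell markers, with open symbols for 0 counts. Dcn lies close to the marker median, from 1.32% and 1.66% in WT EC libraries to 0.166% to 0.313% in hepatocytes, where it is above it. Bgn lies above the marker median in ECs, at 3.44% to 5.13%.

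Libraries of one cell type were then compared between the KO and WT labels, the comparison for which the study was designed. In ECs 1 of the 10 members, Fn1, passed the test and was lower under the KO label, where 2.08% of all 14631 genes tested passed and 1.97% were lower. The median log2 fold change of the members was -0.81 against -0.01 over all genes, and 3 members had an unadjusted p under 0.05, as did 15.0% of all genes. In normalised CPM, 5 members (Dcn, Lum, Fbn1, Fn1 and Loxl1) were lower in both KO-labelled EC libraries than in both WT libraries. The other 5 overlapped. Of all genes, 48.5% did not overlap, with 24.5% lower under the KO label.

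Fn1 in ECs had 84.1 and 214 CPM in WT and 13.3 and 22.9 CPM under the KO label. The groups did not overlap, and the difference was -3.01 ± 0.52 (SE) on the log2 scale, with a 95% interval from -4.26 to -1.77 (adjusted p = 0.0455). The call lay close to the threshold. It was lost with library totals (adjusted p = 0.0551), where 190 of 14631 genes passed, and with all 16 libraries in the fit (0.0642), where 423 of 17214 did. It was also lost with hepatocyte-enriched genes left out of the fit (0.178), where 0 of 13798 genes passed. Leaving out KO library 6 or KO library 46 lost it as well, at log2 fold changes of -2.61 and -3.52. DESeq2 gave 8.14e-09 and called 983 of 14631 genes. A fit without the filter on low counts gave 1.23e-20 and called 1259 of 23953 genes. The log2 fold change stayed between -3.52 and -2.22 over all alternatives. Hepatocyte markers moved in the same direction, since 10 of 10 were lower under the KO label and passed the test, with a median log2 fold change of -2.96 and a summed level of 13000 and 27660 CPM in WT against 2194 to 3097 CPM under the KO label. As a percentage of its mean in WT hepatocytes, Fn1 was 23.7% and 60.3% in WT ECs and 3.75% and 6.47% under the KO label, above the marker median in each of these 4 libraries. The part of hepatocyte RNA in the Fn1 difference was not tested.

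**Figure D3:**
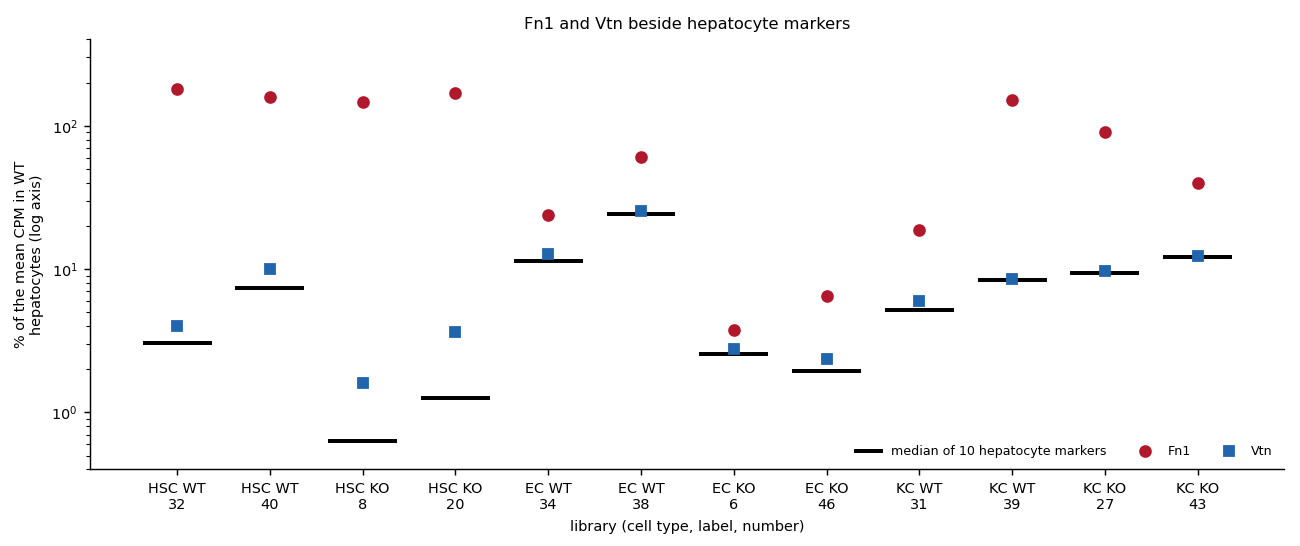
Fn1, Vtn (vitronectin) and the hepatocyte markers as a percentage of their mean CPM in WT hepatocytes (log axis) in the 12 libraries of stellate cells (HSC), endothelial cells (EC) and Kupffer cells (KC). In ECs all of them are lower under the KO label, with Fn1 at 23.7% and 60.3% in WT and at 3.75% and 6.47% under the KO label.

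Dcn and Lum were also lower in both KO-labelled EC libraries, without passing the test. Dcn had a mean of 503 ± 80.5 CPM (SD, n = 2) in WT and of 260.5 ± 97.5 CPM (SD, n = 2) under the KO label, a difference of -0.93 ± 0.34 (SE) on the log2 scale (adjusted p = 0.277). For Lum the difference was -1.15 ± 0.33 (SE) on the log2 scale (adjusted p = 0.18). Stellate cell markers moved with them, as 10 of 10 were lower in both KO-labelled EC libraries, with a summed level of 948 and 1145 CPM in WT and 404 and 551 CPM under the KO label. Their median log2 fold change was -1.35, 0 of the 9 that edgeR tested passed while 8 had an unadjusted p under 0.05, and Hand2 was at 0 in both KO-labelled EC libraries. Smooth muscle and myofibroblast markers had a summed level of 73.8 and 106 CPM in WT ECs and 31.8 and 20.3 CPM under the KO label. Portal fibroblast and mesothelial markers overlapped in summed level, with 34.6 and 37.1 CPM in WT ECs and 45.2 and 27.8 CPM under the KO label. Of these 10 genes, 4 were lower under the KO label without overlap and 6 overlapped. The part of RNA from any of these cells in the Dcn and Lum differences was not tested.

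The remaining members did not pass in ECs. Fbn1 differed by -1.12 ± 0.87 (SE) and Loxl1 by -1.10 ± 0.52 (SE) on the log2 scale, both lower in each KO-labelled library (adjusted p = 0.611 and 0.402). Bgn differed by -0.26 ± 0.26 (SE) on the log2 scale (adjusted p = 0.698), and its groups overlapped. Fbln5 at -0.68, Fmod at 0.88, Eln at 0.51 and Lox at -0.20 overlapped as well.

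**Figure D4:**
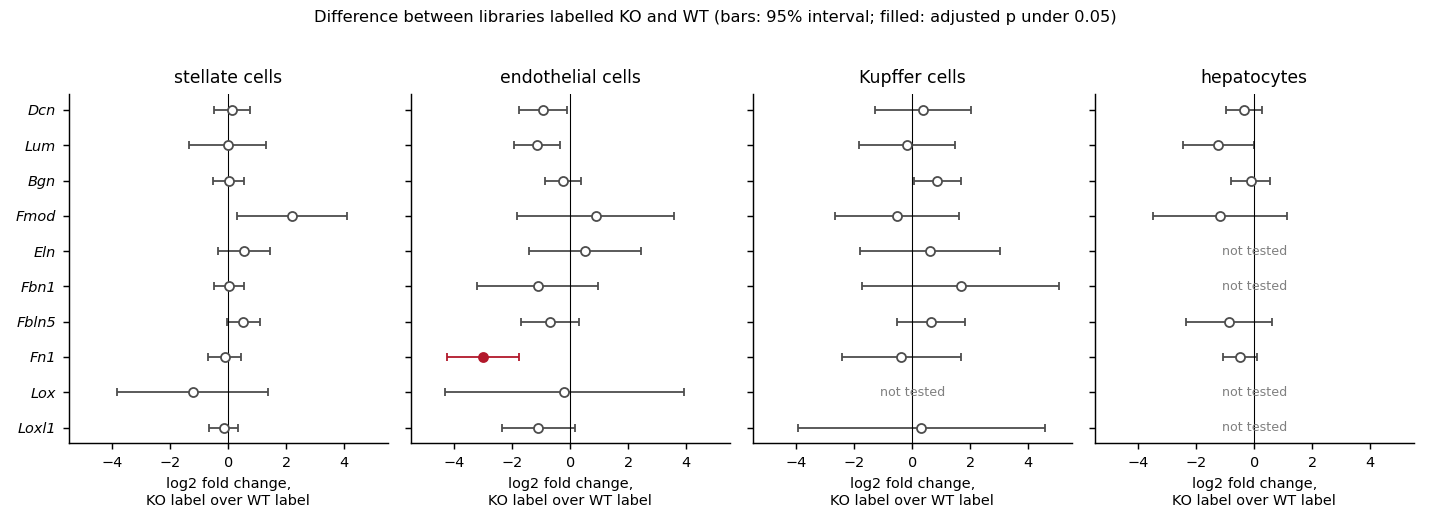
Log2 fold change of the KO label over the WT label for each member in each cell type, with 95% intervals from edgeR as bars and filled symbols for an adjusted p under 0.05. Fn1 in endothelial cells, at -3.01 with an interval from -4.26 to -1.77, is the only filled symbol.

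In HSCs, the cells that held most of these transcripts, 0 of 10 members passed, and 0.0% of all 14390 genes did. DESeq2 called 0 members too, while it called 408 of the 14390 genes. At an unadjusted p under 0.05 edgeR had 1 member, Fmod, against 8.75% of all genes. The median log2 fold change of the members was 0.02, as over all genes. For Bgn the difference was 0.01 ± 0.22 (SE), for Fbn1 0.03 ± 0.21 (SE), for Dcn 0.12 ± 0.25 (SE) and for Fn1 -0.12 ± 0.23 (SE), all on the log2 scale with adjusted p between 0.936 and 0.994. Loxl1 differed by -0.15 ± 0.20, Eln by 0.55 ± 0.36, Lum by -0.02 ± 0.53 and Lox by -1.22 ± 1.04 (SE) on the log2 scale, with the largest error for Lox.

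Fbln5 and Fmod were the members with no overlap between labels in HSCs, both higher under the KO label. Of all genes, 40.5% did not overlap, with 19.9% higher under the KO label. Fbln5 had a mean of 889 ± 118 CPM (SD, n = 2) in WT and of 1301 ± 38.3 CPM (SD, n = 2) under the KO label, a difference of 0.53 ± 0.22 (SE) on the log2 scale (adjusted p = 0.595). Fmod had a mean of 3.55 ± 2.67 CPM in WT and of 16.2 ± 9.78 CPM (SD, n = 2) under the KO label, a difference of 2.203 ± 0.76 (SE) on the log2 scale with a 95% interval from 0.29 to 4.11 (adjusted p = 0.504). Fmod passed when genes with low counts were kept in the fit (adjusted p = 0.00819), and in no other alternative. Beside these, smooth muscle and myofibroblast markers were higher under the KO label without overlap for 5 of 8 genes and lower for 1, and their summed level overlapped, with 941 and 1247 CPM in WT HSCs against 1170.2 and 1253 CPM. Hepatocyte markers had a median of 3.05% and 7.34% of their own level in WT HSCs and of 0.633% and 1.27% under the KO label, and endothelial markers were lower for 6 of 10 genes. The part of these cells' RNA in the Fbln5 and Fmod values was not tested.

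In Kupffer cells 0 of the 9 members tested passed, and 0.0% of all 13867 genes did. DESeq2 called 0 members, while it called 72 of the 13867 genes. By edgeR 1 member (Bgn) and 5.09% of all genes had an unadjusted p under 0.05. Lox was too low to be tested. The median log2 fold change of the members was 0.38 against -0.02 over all genes. Bgn had 37.7 and 37.8 CPM in WT and 89.6 and 54.5 CPM under the KO label, a difference of 0.87 ± 0.34 (SE) on the log2 scale (adjusted p = 0.933). Bgn and Fbn1 were the members without overlap, both higher under the KO label. Of all genes, 37.3% did not overlap, with 18.5% higher under the KO label. Stellate cell markers were higher without overlap for 3 of 10 genes, with a summed level of 503 and 542 CPM in WT and 459 and 775 CPM under the KO label. The summed level of other lists was higher under the KO label without overlap, namely smooth muscle and myofibroblast markers from 16.3 and 19.4 to 40.4 and 103 CPM, portal fibroblast and mesothelial markers from 13.2 and 13.7 to 26.9 and 51.8 CPM, endothelial markers from 731 and 1027 to 1104 and 1324 CPM and hepatocyte markers from 6462 and 9730.3 to 10836 and 13173 CPM. Their part in the Bgn and Fbn1 values was not tested. Fn1 varied widely, with 66.0 and 535 CPM in WT and 322 and 140.3 CPM under the KO label, and the difference of -0.37 ± 0.85 (SE) on the log2 scale could not be told from 0 (adjusted p = 0.979). The WT library with the lowest Fn1 was also the one with the highest Marco, a scavenger receptor of Kupffer cells, at 9163 CPM against 368 to 670.0 CPM in the other 3. Marco was 1 of the 10 Kupffer cell markers used here. As a set they had a median of 105% of their WT level in that library and 94.5% in the other WT library. Under the KO label the median was 92.2% and 88.1%. A link between Marco and Fn1 was not tested.

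In hepatocytes 0 of the 6 members tested passed, and 0.0% of all 11548 genes did. DESeq2 called 0 members, while it called 32 of the 11548 genes. By edgeR 1 member (Lum) and 7.11% of all genes had an unadjusted p under 0.05. Eln, Fbn1, Lox and Loxl1 were too low to be tested. All 6 had a negative difference, with a median of -0.68 against -0.02 over all genes. Dcn, Fn1 and Lum did not overlap between labels and were lower under the KO label. Of all genes, 40.8% did not overlap, with 20.9% lower under the KO label. Fn1 differed by -0.48 ± 0.24 (SE) on the log2 scale (adjusted p = 0.71), Dcn by -0.35 ± 0.25 (SE) (adjusted p = 0.765) and Lum by -1.24 ± 0.50 (SE) (adjusted p = 0.7). Stellate cell markers moved with them, with a summed level of 113 and 133 CPM in WT and 102 and 59.1 CPM under the KO label. So did endothelial markers, with 188 and 226 CPM against 121 and 172 CPM, and Kupffer cell markers, with 232 and 446 CPM against 157 and 205 CPM, whereas portal fibroblast and mesothelial markers were higher, with 12.9 and 19.6 CPM against 7.43 and 8.41 CPM in WT. Their part in these values was not tested.

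Whether the label difference itself differed between cell types was tested as an interaction over the 16 libraries. For all 6 pairs of cell types 0 members passed by edgeR. Of all genes, 0.0349% passed for HSCs with ECs, 0.593% for HSCs with Kupffer cells, 0.0755% for HSCs with hepatocytes, 2.07% for ECs with Kupffer cells, 0.0697% for ECs with hepatocytes and 0.0116% for Kupffer cells with hepatocytes. For Fn1 the difference in ECs was 2.88 ± 1.01 (SE) lower than in HSCs on the log2 scale (adjusted p = 0.875), -2.69 ± 1.01 (SE) against Kupffer cells (adjusted p = 0.253) and -2.57 ± 1.01 (SE) against hepatocytes (adjusted p = 0.415). Hence the Fn1 difference in ECs was not shown to be particular to them. For Bgn the value in ECs against Kupffer cells was -1.16 ± 0.45 (SE) (adjusted p = 0.266). DESeq2 called this difference, making 1 member for that pair, among 1087 of all 17214 genes that it called.

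Other genes of the same matrix followed the members in part. Of 13 further small leucine-rich proteoglycans, 10 could be tested between HSCs and ECs and 4 were higher in HSCs, with a median log2 fold change of 2.86, where 12.8% of all genes were higher. The most abundant were Prelp, which anchors basement membranes to connective tissue, with 5306 to 7433 CPM in HSCs and 162 to 353 CPM in ECs (log2 fold change 4.93, adjusted p = 2.79e-06), Podn (5.35, adjusted p = 0.00176) and Ogn (5.69, adjusted p = 0.00137). Like Bgn, Prelp was higher in ECs than in Kupffer cells (2.47, adjusted p = 0.000199). Of 18 further elastic fibre and microfibril genes, 17 could be tested and 12 were higher in HSCs, against the same 12.8%, with a median of 4.04. Efemp1 (6.27, adjusted p = 1.36e-06) and Efemp2 (3.70, adjusted p = 0.000134), which encode fibulin-3 and fibulin-4, were among them.

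Some genes of these lists were well expressed in ECs. Emilin1, an elastic fibre glycoprotein, had 885 to 1415 CPM in ECs and 1926 to 2625 CPM in HSCs, a log2 fold change of 1.23 (adjusted p = 0.0442). Ltbp4, which binds latent TGF-beta to microfibrils and was singled out after its values were seen, did not differ between them (-0.06, adjusted p = 0.914). Of 3 further lysyl oxidases, Loxl2 (2.80, adjusted p = 0.0114) and Loxl4 (3.29, adjusted p = 0.0217) were higher in HSCs, whereas Loxl3 had 29.7 to 72.0 CPM in ECs and 83.2 to 113 CPM in HSCs (1.20, adjusted p = 0.145). Sparc, a collagen-binding glycoprotein, had 4099 to 5936 CPM in ECs and 4212 to 8682 CPM in HSCs (0.52, adjusted p = 0.197). Of 12 further interstitial matrix genes tested, 7 were higher in HSCs, again against 12.8% of all genes, with a median of 3.63, and Sparcl1 (7.07, adjusted p = 0.000463) was among them.

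**Figure D5:**
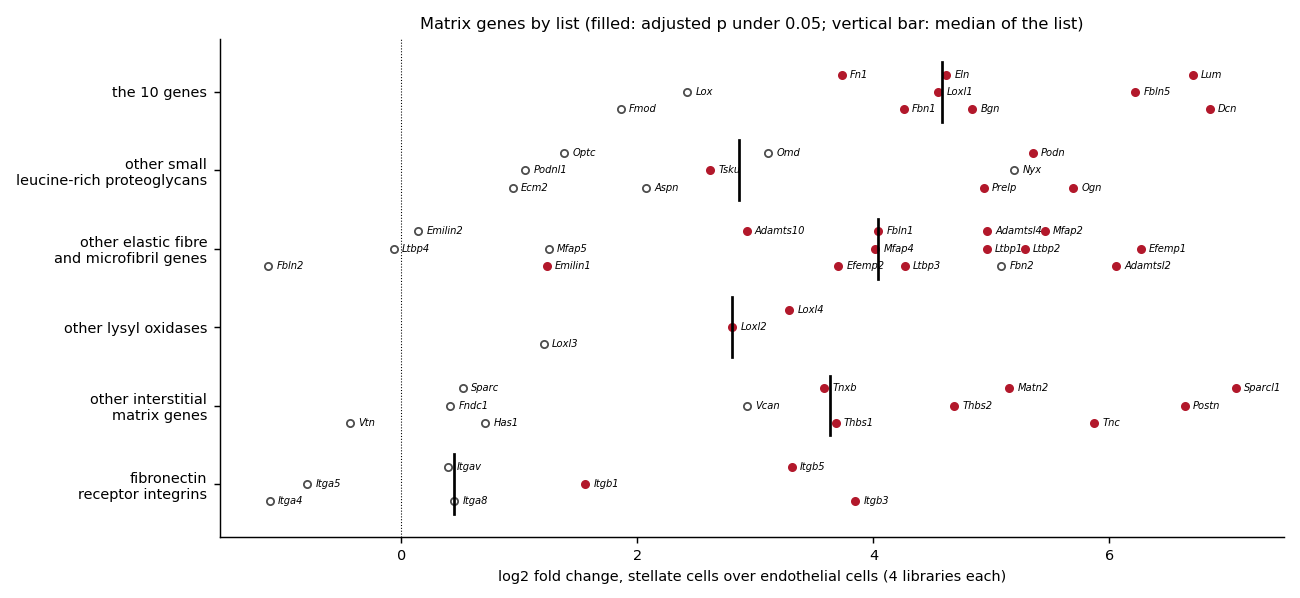
Log2 fold change of stellate cells over endothelial cells (4 libraries each) for the genes of each list, with filled symbols for an adjusted p under 0.05 and a vertical bar at the list median. The members have a median of 4.58, the other small leucine-rich proteoglycans 2.86, the other elastic fibre genes 4.04 and the fibronectin receptor integrins 0.45.

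Between the labels 1 gene of these lists passed in ECs and none passed in the other cell types. It was Vtn, which encodes vitronectin, an adhesive plasma protein made by hepatocytes, with 744 and 1494 CPM in WT ECs and 161 and 137 CPM under the KO label, a difference of -2.90 ± 0.37 (SE) on the log2 scale (adjusted p = 0.029). Hepatocytes held 5765 to 6312 CPM of Vtn, and it moved in ECs in the direction of the hepatocyte markers, as Fn1 did. Its level was 12.7% and 25.5% of its mean in WT hepatocytes in WT ECs, and 2.75% and 2.34% under the KO label. Fn1 was higher on that scale in each of these libraries. The part of hepatocyte RNA in these values was not tested. In ECs the list medians were -0.18 for the proteoglycans, -0.51 for the elastic fibre genes, 0.03 for the lysyl oxidases and -0.88 for the interstitial matrix genes, against -0.01 over all genes. In HSCs they were 0.29, -0.46, -0.19 and -0.15, against 0.02.

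Genes whose level was most like that of a member were sought by Pearson's r of log2 CPM over the 16 libraries, a description in which the cell types set most of the variation. Dcn was closest to Colec11 (r = 0.997), Colec10 (0.995) and Cygb (0.993), Lum to Mustn1 (0.991), Dcn (0.990) and Cygb (0.988), and Bgn to Prelp (0.996), Plvap (0.996) and Sept4 (0.988). Plvap encodes a protein of the diaphragms of endothelial fenestrae, and its own levels are not given here. Bgn, to which it was close, was highest in HSCs, with a mean of 6505 CPM against 269 CPM in ECs. Colec11 and Ecm1 were among the stellate cell markers used here. Among the elastic fibre genes, Fbln5 was closest to Fhl1 (0.992), Ecm1 (0.991) and Ednra (0.989), Fbn1 to Prelp (0.979), Adamts12 (0.973) and Adamts2 (0.972), and Eln to Col6a2 (0.963), P3h4 (0.962) and Sept7 (0.958). Loxl1 was closest to Fstl1 (0.988), Ssbp2 (0.980) and Mmp2 (0.980). The nearest genes to Fn1, Syt3 (0.913), Alcam (0.901) and Arhgap42 (0.883), and to Fmod, Gucy2g (0.849), Hpca (0.798) and Mpi (0.793), were less alike, and Lox was too low for the measure.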

How the data were processed

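The authors deposited raw counts, the number of reads per Ensembl mouse gene, in 1 table per library without normalization. The submitters' processing notes name Trimmomatic 0.32, HISAT2 2.1.0, HTSeq 0.9.1, edgeR and the build GRCm38. The annotation release and the strand setting are not given in the sources used here. The sample labels name a stranded mRNA kit and the series text Smart-seq2, and which applies was not settled. The 5 summary lines of each table, which name no gene, were left out of all totals.

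CPM were computed over gene rows. Levels per kilobase used the merged length of all annotated exons of a gene in GENCODE M21, which held 99.1% of the identifiers. All genes were tested with edgeR 4.0.16 in R 4.3.3 (filterByExpr, TMM, quasi-likelihood test, Benjamini-Hochberg adjustment over all genes tested, threshold 0.05). Labels were compared over the 4 libraries of a cell type. Cell types and interactions were compared in 1 fit of 16 libraries with 8 group means, which treats libraries as independent although some may share a liver. Nothing states which libraries are separate animals, so that p-values measure the spread between these libraries. The tests were run on simulated data first. The same values were recomputed with DESeq2 1.42.0, with RLE size factors, without the filter, with all libraries in 1 fit and with each replicate left out. Further settings left out hepatocyte-enriched genes (at least 10 CPM in WT hepatocytes and 8 times the level in WT Kupffer cells) or used library totals, the last chosen after seeing the data. Cell types were also contrasted between their WT groups only. That contrast kept all 16 libraries in the fit, so KO-labelled libraries still entered the filter, the scaling factors and the spread.

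All 10 members are named. Of each further list the genes past the threshold between labels and the 3 with the highest level per kilobase are named, and for likeness (log2 CPM with a prior count of 2, genes of at least 1 CPM on average) the 3 nearest genes. The members and lists were chosen with earlier results of these data known. Promoters were found in RefSeq for 4 members. Figures used matplotlib 3.10.9 under Python 3.11.15.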

Additional observations from a re-analysis of the deposited data

How the results depend on the processing

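With 2 libraries per group, 1 library can decide a call, and levels under about 1 CPM carry few counts. Of the values for single genes under alternatives, 981 kept their direction and their side of the threshold, 40 newly passed it, 46 no longer passed it and 62 changed sign. Between labels in endothelial cells 305 of 14631 genes passed, 1259 of 23953 without the filter on low counts and 190 of 14631 with library totals. With all 16 libraries in 1 fit 423 of 17214 passed, and without hepatocyte-enriched genes 0 of 13798. The count of members there, 1 as reported, was 3 without the filter (Fn1 with Dcn, adjusted p = 0.0292, and Lum, 0.0486). It was 0 with library totals, with all 16 libraries in 1 fit and without hepatocyte-enriched genes. It was 0 to 1 when a replicate was left out, and 0 without KO library 6 or 46. In stellate cells it was 1 without the filter, where 663 of 24592 genes passed, against 0 as reported. When only WT groups were contrasted, 3 members passed between endothelial cells and hepatocytes, against 6, where 7181 of 17214 genes did. Between Kupffer cells and hepatocytes, where 6748 genes passed in that contrast, the count of members was 0, against 4. The latter count was 2 to 4 with a replicate left out, with 2 without Kupffer cell KO library 27, hepatocyte WT library 33 or hepatocyte KO library 41. The label difference between endothelial and Kupffer cells had 1 member past the threshold with DESeq2, and 0 to 1 with a replicate left out, with 1 without Kupffer cell library 39, 27 or 43. For stellate against Kupffer cells and for Kupffer cells against hepatocytes the range was 0 to 1, with 1 without Kupffer cell KO library 27. The cause of these changes was not tested.

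Changes of sign are given here as log2 fold changes. With library totals they were Lum between labels in stellate cells (0.041), Fn1 in stellate cells against hepatocytes (0.99, and 0.14 without the filter), Eln in endothelial against Kupffer cells (0.019), Fmod in endothelial cells against hepatocytes (1.03) and Fbn1 in Kupffer cells against hepatocytes (0.20). Without hepatocyte-enriched genes they were Bgn (-0.028) and Fbn1 (-0.0077) between labels in stellate cells. With only WT groups contrasted they were Fmod in stellate cells against hepatocytes (-0.16), and Dcn (-0.063) and Fmod (-0.20) in Kupffer cells against hepatocytes. Fbln5 in endothelial against Kupffer cells was -0.056 with RLE size factors and with DESeq2.

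Leaving out a replicate also lowered the smallest group to 1 library, so that the filter kept more genes and the scaling factors were estimated anew, and the move of a value is not that of the left-out library alone. It gave these ranges for values that changed sign. Between labels they were -0.94 to 1.48 for Lox and -0.47 to 1.10 for Eln in endothelial cells. In stellate cells they were -0.034 to 0.047 for Bgn, -0.30 to 0.038 for Fn1, -0.97 to 0.55 for Lum, -0.13 to 0.18 for Fbn1 and -1.97 to 0.38 for Lox. In Kupffer cells they were -0.82 to 1.001 for Lum, -0.10 to 1.79 for Eln, -0.75 to 1.34 for Dcn, -1.17 to 1.63 for Fn1 and -8.47 to 1.31 for Loxl1, and in hepatocytes -0.38 to 0.21 for Bgn and -1.89 to 0.30 for Fmod. For stellate cells against hepatocytes Fn1 ran from 0.0078 to 0.26, all above the reported -0.13. For endothelial against Kupffer cells they were -0.23 to 0.30 for Fbln5, -1.53 to 3.32 for Lox, -0.35 to 4.49 for Loxl1 and -0.82 to 0.28 for Eln. For endothelial cells against hepatocytes they were -1.45 to 0.61 for Fmod and -1.03 to 3.53 for Lox. For Kupffer cells against hepatocytes they were -1.88 to 2.39 for Lox, -0.038 to 0.81 for Dcn, -1.90 to 2.74 for Loxl1, -0.19 to 1.11 for Fmod and -1.05 to 2.66 for Fbn1. No paired analysis was possible because no number in a label occurs in more than 1 group.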

Other observations

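Of 7 integrin subunits that form receptors for fibronectin, 3 were higher in stellate cells than in endothelial cells by edgeR's quasi-likelihood test with Benjamini-Hochberg adjustment, as were 12.8% of all genes. Itgb1, the beta subunit shared by many matrix receptors, had 510 to 913 CPM in stellate cells and 220 to 417 CPM in endothelial cells (log2 fold change 1.56, adjusted p = 0.0057). Itgb3 had 144 to 291 CPM against 12.7 to 26.8 CPM (3.85, adjusted p = 6.08e-05), and Itgb5 had 68.8 to 105 CPM against 6.42 to 19.5 CPM (3.31, adjusted p = 6.97e-06). Itgb5 was the subunit of these 3 that was higher in Kupffer cells, at 127 to 144 CPM, than in stellate cells (-0.74, adjusted p = 0.0437). Between labels 0 of the 7 passed the test in any cell type, and 2 had an unadjusted p under 0.05 in endothelial cells, 2 in stellate cells, 1 in Kupffer cells and 0 in hepatocytes, against 15.0%, 8.75%, 5.09% and 7.11% of all genes.

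Markers of other matrix-producing cells were also read in the stellate cell libraries. Portal fibroblast and mesothelial markers had a summed level of 194 to 292 CPM there and of 27.8 to 45.2 CPM in endothelial cells, and smooth muscle and myofibroblast markers had 941 to 1253 CPM in stellate cells, Des being counted in this list and among the stellate cell markers. The 10 stellate cell markers summed to 47652 to 60409 CPM in the same libraries. Large vessel endothelial markers summed to 421 to 687 CPM in stellate cells, 875 to 1167 CPM in endothelial cells and 36.6 to 77.4 CPM in Kupffer cells. The 10 endothelial markers summed to 356 and 672 CPM in WT stellate cells and to 15857 and 19653 CPM in WT endothelial cells.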
